A study of Mus musculus with 8 samples.

Results

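The 10 genes Areg, Ereg, Hbegf, Tgfa, Btc, Egfr, Erbb2, Erbb3, Hgf and Met encode ligands and receptors of the EGF receptor family and the HGF-MET pair. They were chosen by gene name among the non-control probes of the array, where 22 of 56605 such probes carried one of the 10 names, out of 36666 gene names in all. Total RNA came from livers of male mice that had received acetaminophen 8 h earlier, with 4 samples aged 80 weeks and 4 samples aged 8 weeks, each on its own single-colour Agilent array. Acetaminophen is a painkiller that injures liver cells at high dose. The sources used here name no dose, strain or genetic modification, and do not say whether each array held a separate animal, so the p-values cover only the spread among these samples, which could be technical. Untreated mice were not analysed here, so the effect of age alone and an effect of age on the response to the drug cannot be told apart.

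EGF receptor ligands are made as membrane-bound precursors that metalloproteases release. They bind EGFR directly, and ERBB2, which binds no EGF-type ligand itself, and ERBB3, whose kinase activity is weak, act with it in pairs that signal through RAS-ERK and PI3K. HGF is secreted as an inactive precursor, mainly by stellate and endothelial cells in liver, and after cleavage it binds MET on hepatocytes. In rodents both EGFR and MET are known for their part in the return of hepatocytes to the cell cycle after loss of liver tissue.

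Levels are log2 processed intensity minus the 75th percentile of the same array. A value of 0 is thus as bright as that percentile, and each difference is the 80-week mean minus the 8-week mean. That percentile ran from 154.7 to 264.8 intensity units on 80-week arrays and from 178.2 to 352.8 on 8-week arrays, and 43.3% to 46.6% and 43.7% to 50.4% of probes were well above background. On the first principal component, with 49.1% of the variance, 8-week replicates 1 and 2 stood at -61.3 and -99.2. The 80-week arrays stood between 17.0 and 47.5 and the other 8-week arrays at 10.2 and 12.3. Where leaving out those 2 arrays turned the sign of a list's median, or moved it by over 1.5 times, that value is given too. The same holds for the 10 genes and the named pathway genes, but not for single cell type markers. The samples also differed by slide position, since 80-week samples took row 2 and 8-week samples row 1 of 1 slide, so slide row cannot be told apart from age. The hepatocyte list, with 5 of 6 names tested, had 5 of 5 positive differences and a median of 0.15, which was -0.12 without those 2 arrays. Its summed level was 2160 to 3714 times the 75th percentile in 80-week livers and 1537 to 3187 times in 8-week livers.

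At the brightest probe each of the 5 ligand genes averaged less in 80-week livers, from -2.22 for Ereg to -0.73 for Tgfa. Among the receptors and Hgf, Erbb2 differed by -0.96, and Egfr, Erbb3, Hgf and Met by less than 0.4 either way. Other tested probes gave 0.44 for Tgfa, -0.54 to 0.39 for Egfr and -0.42 for Met. Egf, a further ligand outside the 10, differed by 1.62. In the limma fit over 17565 genes, 0 of the 10 passed an adjusted p of 0.05 in either direction, against 0.33% of genes called higher and 0.0285% called lower, 0.359% in all. At an unadjusted p under 0.05, 4 of the 10 were lower (Areg, Ereg, Tgfa and Erbb2) and 0 were higher, against 6.14% lower and 7.91% higher of all genes tested, 14.1% in either direction. That count of 4 was 0 without 80-week replicate 3 and 0 without 80-week replicate 4, and 2 without 8-week replicate 1 or replicate 2. Differences below 0 were found for 8 of the 10, against 48% of genes, and the median difference was -0.84, against 0.018 over all genes. The groups did not overlap at 1 of the 10, Tgfa by its brighter probe, against 8.38% of genes. Without 8-week replicates 1 and 2 the median of the 10 was -0.27, against -0.057 over all genes. In that fit 8 differences were below 0 (Erbb3 now among them, Btc no longer). At an unadjusted p under 0.05, 1 of the 10 was lower, against 4.75% of genes. The lowest adjusted p among them was then 0.469.

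**Figure D1:**
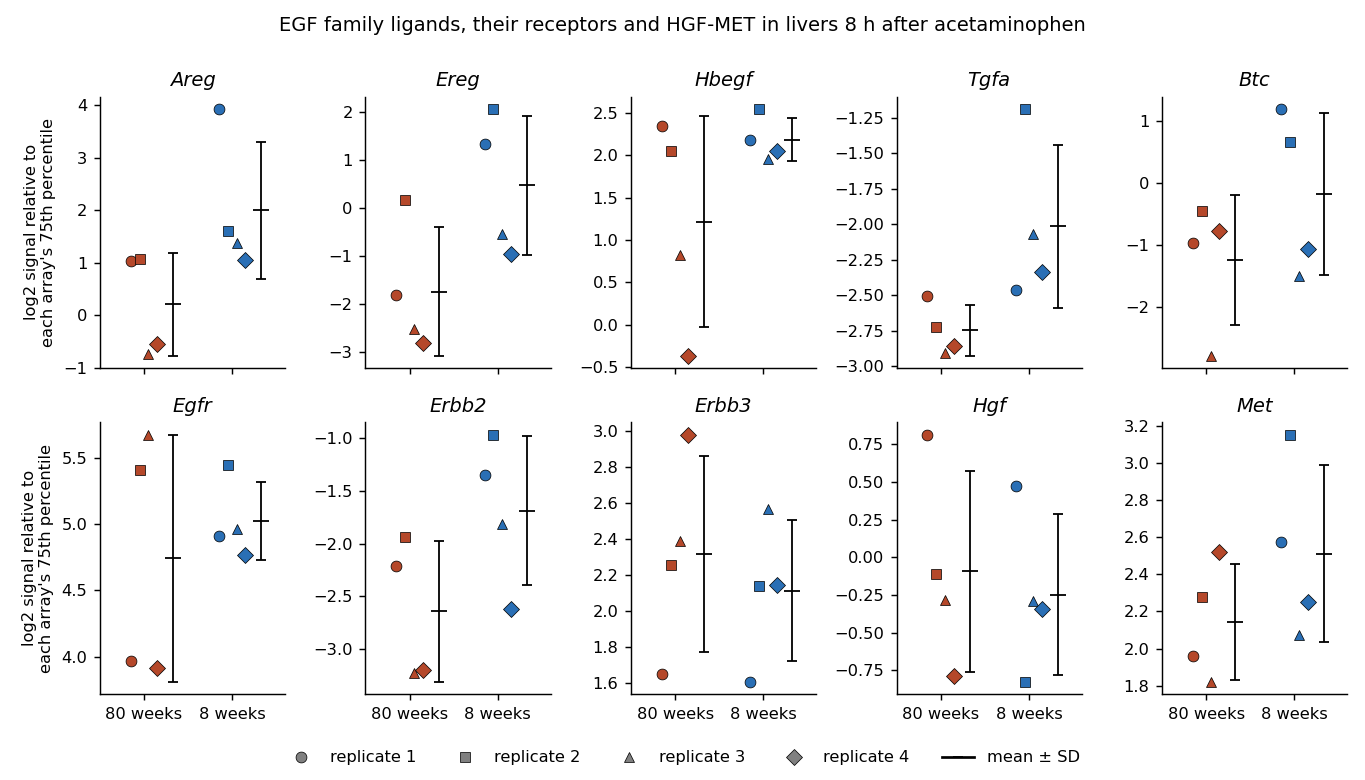
Level of each of the 10 genes on each array (log2 relative to the array's 75th percentile, one panel and scale per gene), with 80-week livers left of 8-week livers, points for arrays and bars for the mean and SD. Areg, Ereg, Hbegf, Tgfa, Btc, Erbb2 and Met were highest on 8-week replicates 1 or 2, and the levels of Hgf and Erbb3 were intermixed.

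Areg encodes amphiregulin, a low-affinity EGFR ligand made by epithelial and immune cells after injury. Its 1 probe lay at chr5:91570090-91570149 on the plus strand (mm9, from the array files) and had a GC content of 36.7%. The probe and the start region of the gene (RefSeq, GRCm38.p6, chr5:91139349-91139648, plus strand, 250 bases before the start to 50 after it) are shown because Areg and Ereg had the largest differences of the 10. Capitals mark the CRE core TGACG, the start of the full cAMP response element, searched on both strands.
Areg probe: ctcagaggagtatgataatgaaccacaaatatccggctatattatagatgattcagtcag
Areg promoter: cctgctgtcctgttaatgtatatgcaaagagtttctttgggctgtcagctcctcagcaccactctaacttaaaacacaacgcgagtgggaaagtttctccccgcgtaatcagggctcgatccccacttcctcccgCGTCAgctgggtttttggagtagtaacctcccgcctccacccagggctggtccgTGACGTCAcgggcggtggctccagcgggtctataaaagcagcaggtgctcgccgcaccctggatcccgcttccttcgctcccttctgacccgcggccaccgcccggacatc
The core matched 3 times, beginning 115, 61 and 58 bases before the start, and the matches at 61 and 58 overlapped on opposite strands. At least 1 match was found in 20.8% of the 32851 promoters of the table, and the AP-1 motif TGANTCA, held by 7.81% of them, was not found in this window. A match is a description of letters and not a binding site.

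Areg measured 1.04, 1.07, -0.73 and -0.54 on the 80-week arrays, against 3.93, 1.61, 1.38 and 1.06 on the 8-week arrays. Replicate 1 of the 8-week group was the highest, 80-week replicates 3 and 4 were the lowest, and the groups overlapped narrowly, between 1.07 in an 80-week liver and 1.06 in an 8-week liver. The means were 0.21 ± 0.98 in 80-week livers and 1.996 ± 1.31 in 8-week livers (SD, n = 4 each). The difference of -1.79 (SE 0.67, 95% interval -3.29 to -0.29) corresponded to a ratio of 0.290 and had an adjusted p of 0.306. It was -1.14 without 8-week replicate 1 (adjusted p = 0.635) and -1.01 without 8-week replicates 1 and 2 (adjusted p = 0.650).

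Ereg encodes epiregulin, a ligand of EGFR and ERBB4, and showed the largest difference of the 10. Its level was -1.80, 0.17, -2.51 and -2.81 in 80-week livers, against 1.34, 2.07, -0.53 and -0.95 in 8-week livers. The highest values were those of 8-week replicates 1 and 2, and 80-week replicate 2 lay above the other 8-week samples, so the groups overlapped. Ereg averaged -1.74 ± 1.34 in 80-week livers and 0.48 ± 1.45 in 8-week livers (SD, n = 4 each), a difference of -2.22 (SE 0.80, 95% interval -4.02 to -0.41, adjusted p = 0.305). The difference was -0.996 without 8-week replicates 1 and 2 (adjusted p = 0.730), -1.17 with array weights and -1.46 with normexp background correction.

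Hbegf encodes heparin-binding EGF-like growth factor. It measured 2.35, 2.06, 0.82 and -0.37 in 80-week livers, against 2.18, 2.55, 1.96 and 2.06 in 8-week livers. The 8-week samples lay close together, and 80-week replicates 3 and 4 lay below them all. The means were 1.21 ± 1.24 and 2.19 ± 0.26 in 80-week and 8-week livers (SD, n = 4 each), and the difference of -0.97 (SE 0.53, 95% interval -2.16 to 0.22) had an adjusted p of 0.418. It was -0.44 without 80-week replicate 4. A further Hbegf probe was well above background on no array.

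Tgfa encodes transforming growth factor alpha, which hepatocytes themselves make during regeneration in rodents. Its brighter probe measured -2.50, -2.73, -2.91 and -2.85 in 80-week livers, against -2.46, -1.19, -2.07 and -2.34 in 8-week livers. All 80-week samples lay below all 8-week samples, by little at the nearest pair, and the signal was dim, being well above background on 2 of 4 80-week arrays and 4 of 4 8-week arrays. The means were -2.75 ± 0.18 in 80-week livers and -2.02 ± 0.57 in 8-week livers (SD, n = 4 each). The difference was -0.73 (SE 0.28, 95% interval -1.37 to -0.09, adjusted p = 0.320), and -0.46 without 8-week replicate 2. With normexp background correction it was 0.084. The other tested Tgfa probe lay within a span of 65048 bases with the first and gave 0.44 (SE 0.48, adjusted p = 0.677 over all probes). It was dim too, being well above background on 3 of 4 80-week arrays and 2 of 4 8-week arrays. This other probe is annotated to a RefSeq transcript of Tgfa, the brighter probe to an Ensembl transcript. The direction for Tgfa thus depended on the probe and on the background correction.

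Btc encodes betacellulin, a ligand of EGFR and ERBB4. It measured -0.97, -0.45, -2.80 and -0.78 in 80-week livers, against 1.19, 0.66, -1.50 and -1.06 in 8-week livers. Only 8-week replicates 1 and 2 were above 0, and the other 8-week samples lay within the range of the 80-week samples. The means were -1.25 ± 1.05 in 80-week livers and -0.18 ± 1.31 in 8-week livers (SD, n = 4 each). The difference of -1.07 (SE 0.69, 95% interval -2.61 to 0.47, adjusted p = 0.478) was -0.61 without 8-week replicate 1, -0.55 without 80-week replicate 3, -0.26 with array weights, and 0.035 without 8-week replicates 1 and 2 together. A further Btc probe was well above background on no array. Areg, Ereg and Btc are neighbours on chromosome 5, with 0 protein-coding genes between them in the RefSeq table.

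**Figure D2:**
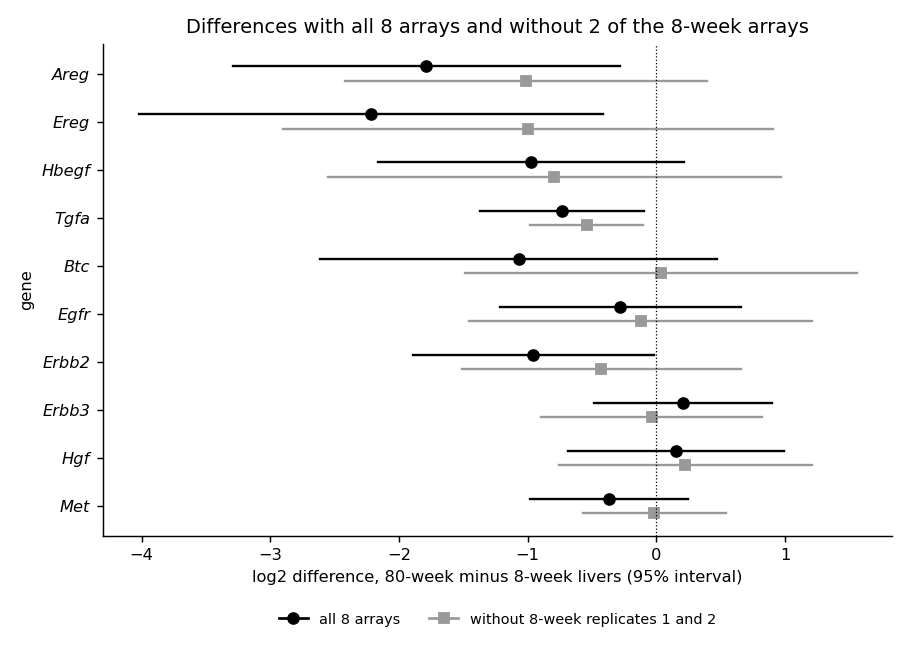
Difference between 80-week and 8-week livers for each gene (log2, horizontal axis, with the 95% interval as a line), from all 8 arrays (black circles) and without 8-week replicates 1 and 2 (grey squares). The difference of Areg was -1.79 and -1.01, that of Ereg -2.22 and -0.996, and that of Btc -1.07 and 0.035 in these 2 fits.

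Among the cell type lists, monocyte markers had the lowest median difference. The neutrophil, cholangiocyte and sinusoidal endothelial lists also had negative medians, and the other cell type lists positive ones. Of the 5 monocyte names 4 were tested (Ccr2 was not), and 4 of 4 were negative, against 48% of all genes. Their median difference was -1.82. With all 8 arrays that median fell between unlike values, -3.73 for Chil3 and -3.23 for F13a1, and -0.41 for Ly6c2 and -0.30 for Itgam. These single differences leaned on 8-week replicates 1 and 2 to unlike degrees. F13a1 measured 1.14 and 2.76 there, against -1.95 and -2.79 on 8-week replicates 3 and 4. F13a1 was well above background on 1 of 4 80-week arrays. The summed level of the 4 markers was 8.99 to 12.4 times the 75th percentile in 80-week livers. In 8-week replicates 1 to 4 it was 31.6, 76.4, 16.1 and 15.2 times, so 8-week replicates 1 and 2 were also the highest here. Chil3 was the brightest of the 4 on those arrays, at log2 levels of 4.01 and 5.70. Without those arrays 1 was positive and 3 negative, with a median of -0.69. Fewer cells of a type and less RNA per cell cannot be told apart in whole liver, and the part of these markers in the ligand values was not tested. The neutrophil list gave 2 positive and 4 negative differences (median -0.36), with summed levels of 119 to 261 times in 80-week livers and 177 to 250 times in 8-week livers. For Kupffer cells 4 were positive and 1 negative (median 0.36), with 61.0 to 239.6 times in 80-week livers and 49.6 to 154.6 times in 8-week livers.

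Egfr encodes the receptor that all 5 of these ligands bind, and hepatocytes carry much of it. Its brightest probe measured 3.97, 5.41, 5.67 and 3.92 in 80-week livers, against 4.91, 5.44, 4.96 and 4.76 in 8-week livers. The 80-week values formed a high and a low pair on either side of most of the 8-week values, and the groups overlapped. The means were 4.74 ± 0.93 and 5.02 ± 0.29 in 80-week and 8-week livers (SD, n = 4 each), with a difference of -0.28 (SE 0.42, 95% interval -1.21 to 0.66, adjusted p = 0.769). Leaving out single arrays moved this value between -0.59 (without 80-week replicate 3) and -0.0044 (without 80-week replicate 4), array weights gave 0.022, and the value was -0.12 without 8-week replicates 1 and 2.

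The 4 Egfr probes, which spanned 158237 bases, did not share a direction. The differences at the others were -0.50 (A_52_P56471), -0.54 (A_52_P674338) and 0.39 (A_52_P5855), and none of the 4 passed the threshold over all probes. The only positive probe, A_52_P5855, was the dimmest, with means of -1.68 and -2.08 in 80-week and 8-week livers. It was well above background on 3 of 4 80-week arrays and is annotated to a cDNA clone, the others to RefSeq transcripts. The brightest probe and A_52_P674338 are annotated to the same transcript, and A_52_P56471 to a different one. The probe A_52_P56471 lay at chr11:16783545-16783604 (mm9, plus strand, GC content 50%), and it is shown because its order of arrays differed from that of the brightest probe.
Egfr probe A_52_P56471: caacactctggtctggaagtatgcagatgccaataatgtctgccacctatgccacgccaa
At this probe the levels were 3.35, 3.33, 2.89 and 1.71 in 80-week livers, against 3.13, 2.82, 3.59 and 3.76 in 8-week livers. The lowest value was that of 80-week replicate 4, and 80-week replicate 3, the highest sample at the brightest probe, was among the lower ones here.

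Erbb2 encodes the coreceptor with no EGF-type ligand of its own. Its tested probe measured -2.21, -1.93, -3.23 and -3.20 in 80-week livers, against -1.35, -0.97, -1.81 and -2.62 in 8-week livers. The highest samples were 8-week replicates 1 and 2 and the lowest 80-week replicates 3 and 4, with overlap between the groups. The means were -2.64 ± 0.67 and -1.69 ± 0.71 in 80-week and 8-week livers (SD, n = 4 each), and the difference of -0.96 (SE 0.42, 95% interval -1.89 to -0.02) had an adjusted p of 0.353. It was -0.43 without 8-week replicates 1 and 2, -0.46 with normexp correction and -0.60 with array weights. At a further probe, which was not tested, Erbb2 was well above background on 0 of 4 80-week arrays and 3 of 4 8-week arrays. The measured means were -3.51 and -2.65, and the groups overlapped, at -3.01 in 80-week replicate 1 and -3.06 in 8-week replicate 1. Each 80-week value was also raised, where lower, to the lowest signal among probes well above background on its array. The 80-week mean was then 1.32-fold lower than the 8-week mean. A dim probe can lie above that lowest signal, so this ratio is not a strict bound.

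Erbb3 encodes the receptor that couples most directly to PI3K. It measured 1.65, 2.26, 2.39 and 2.98 in 80-week livers, against 1.61, 2.14, 2.57 and 2.15 in 8-week livers. The ranges overlapped over most of their length, with 80-week replicate 4 the highest. Erbb3 averaged 2.32 ± 0.55 in 80-week livers and 2.11 ± 0.39 in 8-week livers (SD, n = 4 each). The difference was 0.21 (SE 0.31, 95% interval -0.49 to 0.90, adjusted p = 0.770). It was -0.015 without 80-week replicate 4, -0.037 without 8-week replicates 1 and 2, and 0.43 without 80-week replicate 1. A further Erbb3 probe was well above background on no array.

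Hgf encodes hepatocyte growth factor. It measured 0.81, -0.11, -0.28 and -0.79 in 80-week livers, against 0.47, -0.83, -0.29 and -0.35 in 8-week livers. Replicate 1 was the highest sample of each group and the rest were intermixed. Hgf averaged -0.09 ± 0.67 in 80-week livers and -0.25 ± 0.54 in 8-week livers (SD, n = 4 each), a difference of 0.15 (SE 0.37, 95% interval -0.69 to 1.00, adjusted p = 0.862). The other tested probes gave 0.044 and 0.24, and a further probe was well above background on no array. The sign was not stable: it was -0.15 without 80-week replicate 1, -0.038 without 8-week replicate 2 and -0.0012 with normexp correction, and 0.40 without 8-week replicate 1. Stellate cell markers, 8 of 8 tested, were positive at 5 and negative at 3 (median 0.19, and -0.045 without 8-week replicates 1 and 2), with summed levels of 192 to 276 times the 75th percentile in 80-week livers and 134 to 214 times in 8-week livers. Sinusoidal endothelial markers were positive at 2 and negative at 5 (median -0.16, and -0.50 without those arrays), with 72.7 to 121 times in 80-week livers and 68.4 to 118 times in 8-week livers.

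Met encodes the HGF receptor. Its brighter probe measured 1.96, 2.28, 1.82 and 2.52 in 80-week livers, against 2.58, 3.15, 2.07 and 2.25 in 8-week livers. The highest value was that of 8-week replicate 2, and the groups overlapped. Met averaged 2.14 ± 0.31 in 80-week livers and 2.51 ± 0.48 in 8-week livers (SD, n = 4 each), a difference of -0.37 (SE 0.27, 95% interval -0.98 to 0.25, adjusted p = 0.536). It was -0.15 without 8-week replicate 2, -0.062 with array weights and -0.015 without 8-week replicates 1 and 2.

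The other Met probe, A_55_P2830865, lay at chr6:17442312-17442371 (mm9, plus strand, GC content 41.7%), and both probes fell within 81513 bases. It is shown with the start region of Met (RefSeq, GRCm38.p6, chr6:17463707-17464006, plus strand), the only one of the 10 genes' promoters in the table that held TGANTCA, in capitals, beginning 54 bases before the start.
Met probe A_55_P2830865: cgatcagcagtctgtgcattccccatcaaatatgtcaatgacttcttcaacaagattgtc
Met promoter: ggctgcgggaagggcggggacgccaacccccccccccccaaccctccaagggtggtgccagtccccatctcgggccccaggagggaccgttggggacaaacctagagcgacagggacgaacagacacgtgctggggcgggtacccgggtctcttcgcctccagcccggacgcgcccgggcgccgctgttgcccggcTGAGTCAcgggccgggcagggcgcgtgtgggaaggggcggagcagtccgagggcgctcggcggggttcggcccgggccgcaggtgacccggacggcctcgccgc
At this probe the levels were -0.59, 0.06, -1.19 and -0.58 in 80-week livers, against -0.24, 0.16, 0.17 and -0.69 in 8-week livers. The difference of -0.42 (SE 0.30, adjusted p = 0.518 over all probes) had the same sign as that of the brighter probe. The table had start regions for 7 of the 10 genes, and beside Areg the CRE core TGACG was found once each in those of Btc and Erbb2, 113 and 171 bases before the start. Neither motif was found in the windows of Egfr, Tgfa or Hgf.

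**Figure D3:**
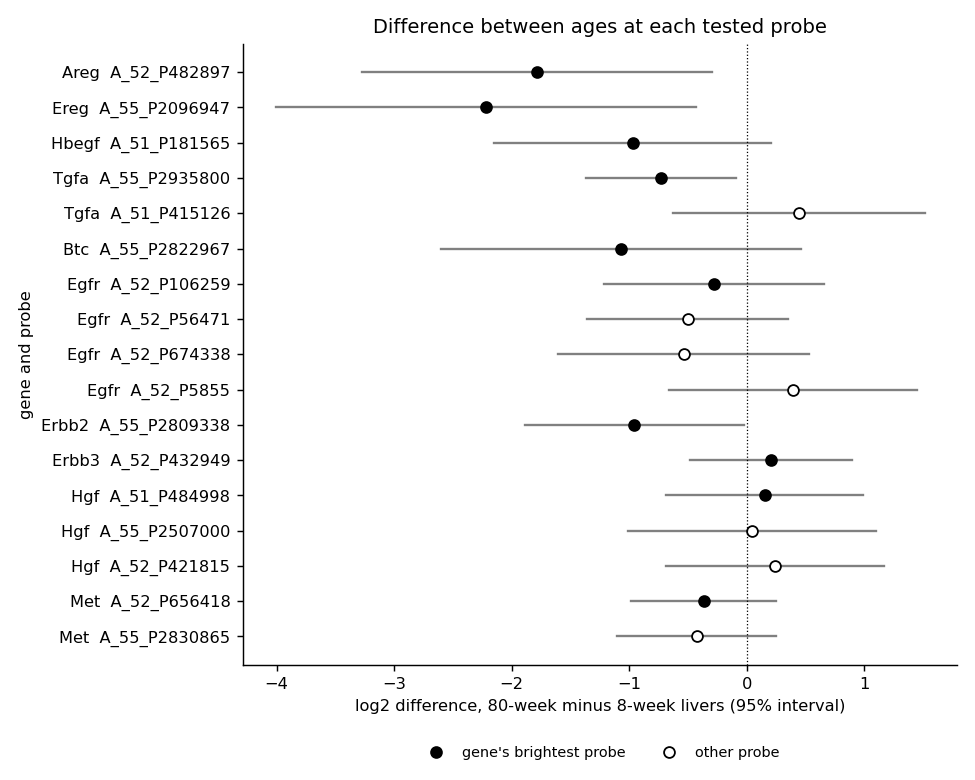
Difference between 80-week and 8-week livers at each of the 17 tested probes of the 10 genes (log2, horizontal axis, with the 95% interval as a line), filled for the brightest probe of a gene and open for the others. Both Met probes were negative and all 3 Hgf probes positive, while Tgfa (-0.73 and 0.44) and Egfr (-0.54 to 0.39) had probes of both signs.

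The other genes of the pathway were read from 6 lists by role, in none of which a gene passed the adjusted threshold in the limma fit. The counts in these lists stand beside shares over all genes tested. At an unadjusted p under 0.05 in that fit, 6.14% of genes were lower and 7.91% higher, and 48% had a difference below 0. Without 8-week replicates 1 and 2, 4.75% were lower at that level. The median over all genes was then -0.057, against 0.018 with all 8 arrays, and the 48% is from all 8 arrays. Among the other EGF family ligands and receptors 4 of 7 were tested, 1 higher and 1 lower at an unadjusted p under 0.05, with a median difference of 0.19, which was -0.034 without 8-week replicates 1 and 2, where neither count held (0 higher and 0 lower). Egf, the founding ligand of the family, measured -2.03, -1.54, -1.02 and -1.67 in 80-week livers, against -5.08, -3.37, -1.95 and -2.35 in 8-week livers, a difference of 1.62 (SE 0.60, adjusted p = 0.306). With all 8 arrays it was opposite in sign to the 5 ligands above at their brightest probes, though not to the other Tgfa probe (0.44). It was 0.59 without 8-week replicates 1 and 2, where Btc was also above 0, at 0.035. Egf was dim, being well above background on 4 of 4 80-week arrays and 3 of 4 8-week arrays. Its level of -5.08 in 8-week replicate 1 lay below -3.30, the lowest signal among probes well above background on that array. Nrg4, a ligand of ERBB4, measured 0.55, 1.18, 0.35 and -0.22 in 80-week livers, against 4.68, 4.91, 1.33 and 0.59 in 8-week livers. Its difference of -2.41 (SE 0.93, adjusted p = 0.320) was -0.50 without those 2 arrays, which held its highest values. Erbb4, the fourth receptor of the family, differed by 0.25, and by -0.015 without those arrays.

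The genes of ligand shedding, 5 of 6 tested, were all negative (median -0.36), against 48% of all genes. Of these, 1 had an unadjusted p under 0.05, against 6.14% of all genes lower at that level. Those named are Rhbdf2 and Rhbdf1, which escort the ligand-releasing protease ADAM17 to the cell surface, at -0.71 and -0.58, and the protease gene Adam10 at -0.36. Without 8-week replicates 1 and 2 the list had 3 positive and 2 negative differences (median 0.055) and 0 lower at an unadjusted p under 0.05. Rhbdf2 was then at -0.74, Rhbdf1 at -0.15 and Adam10 at 0.12. Of the 12 genes of HGF activation and the HGF-like pair 11 were tested, 1 of them higher and 0 lower at an unadjusted p under 0.05, and 6 were positive and 5 negative (median 0.022), or 4 and 7 without those arrays (median -0.19). Klkb1, which encodes plasma kallikrein, differed by 1.19 (SE 0.37, adjusted p = 0.252) and by 0.65 without those arrays. Spint1, an inhibitor of HGF-cleaving proteases, differed by -0.44, and by -0.21 without them.

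Adaptors and the RAS-ERK and PI3K genes, 20 of 21 tested with 2 higher and 1 lower at an unadjusted p under 0.05, were positive at 8 and negative at 12 (median -0.062). Mapk3, which encodes the kinase ERK1, differed by 0.55 and Pik3r1, a regulatory subunit of PI3K, by 0.95. Without 8-week replicates 1 and 2 the list was positive at 11 and negative at 9 (median 0.0060), with 1 higher and 0 lower, Mapk3 was at 0.35 and Pik3r1 at 0.62. The feedback inhibitors, 13 of 13 tested, had 5 lower and 0 higher at an unadjusted p under 0.05, against 6.14% and 7.91% of all genes. Their median was -0.22, and 9 of 13 were negative, against 48% of all genes. Dusp5, a nuclear phosphatase of ERK, measured 1.41, 4.04, 0.26 and -0.12 in 80-week livers, against 4.09, 4.05, 2.54 and 3.23 in 8-week livers, and differed by -2.08 (SE 0.82, adjusted p = 0.326). Lrig1, which promotes the breakdown of EGFR, differed by -1.22 and Spred1, an inhibitor of RAS signalling, by -0.51. Without 8-week replicates 1 and 2 the list had 0 lower at an unadjusted p under 0.05 and was negative at 11 of 13. Its median was then -0.12, against -0.057 over all genes, with Dusp5 at -1.49 and Lrig1 at -0.45.

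The ERK-responsive genes, 10 of 10 tested, had 3 lower and 0 higher at an unadjusted p under 0.05, against 6.14% and 7.91% of all genes. In this list 8 of 10 were negative (median -0.45), against 48% of all genes. Fosl1, the AP-1 subunit FRA-1, measured -0.54, 0.67, -2.43 and -1.67 in 80-week livers, against 2.83, 2.60, -0.22 and 0.49 in 8-week livers. Its difference of -2.42 (SE 0.83, adjusted p = 0.291) was -1.13 without 8-week replicates 1 and 2, the samples in which it was highest. Ccnd1, which encodes cyclin D1, and the ETS factor gene Etv4 differed by -0.53 and -0.55. Without those arrays 8 of 10 were negative (median -0.32, against -0.057 over all genes), Etv4 was at -0.33, and 1 gene was lower at an unadjusted p under 0.05. That gene was Fos, named after its values were seen, which was not among the 3 with all arrays.

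**Figure D4:**
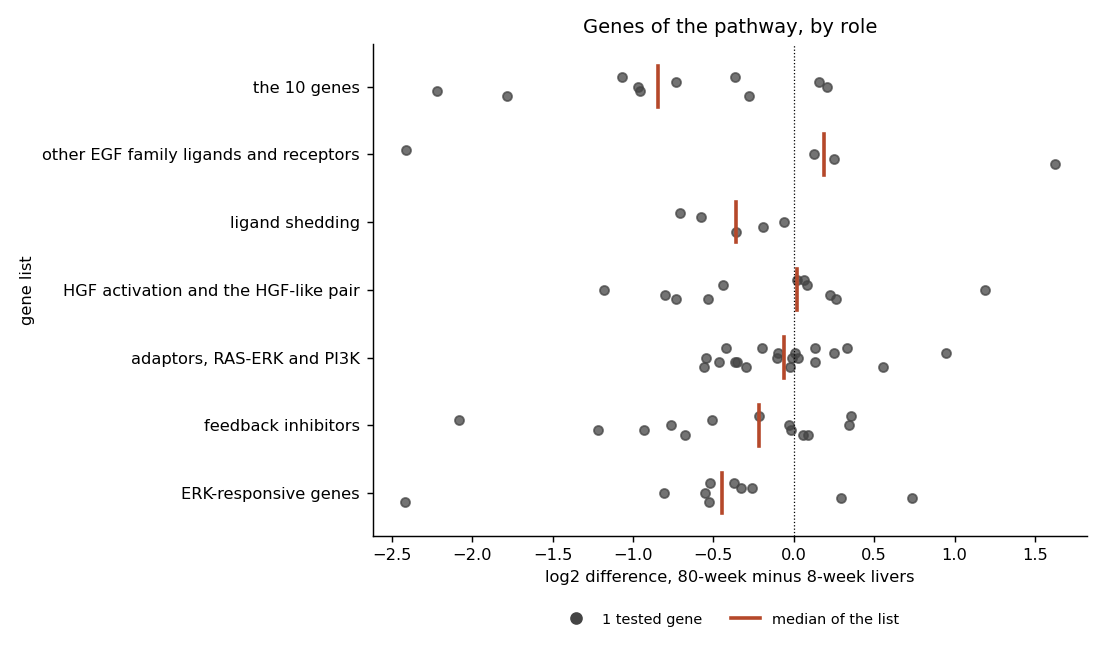
Difference between 80-week and 8-week livers (log2, horizontal axis) for each tested gene of the 10 and of the 6 lists of the pathway, with a vertical bar at the median of each. The medians ran from -0.84 for the 10 genes to 0.19 for the other EGF family members.

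Ereg, which had the smallest p of the 10, was compared with the 13827 other tested genes that had a RefSeq symbol by Pearson correlation over the 8 arrays, as a description, since all points share the array scaling and the difference between ages. The 5 genes most like it were Sf3b3 (r = 0.981), a splicing factor subunit, Nes (0.977), the intermediate filament nestin, Sprr1a (0.975), a cornified envelope protein, Wdr1 (0.975), which aids actin disassembly, and the pseudogene Hmga2-ps1 (0.975), whose signal may include its parent gene. Of the other 9 genes, Erbb2 was the most like Ereg (0.95), followed by Areg (0.80), Btc (0.79), Hbegf and Tgfa (both 0.73) and Met (0.70). Egfr stood at 0.46, Hgf at -0.0014 and Erbb3 at -0.48.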

How the data were processed

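The authors deposited 1 scanner file per array and 1 table of the series, both holding intensity values, background-corrected by Feature Extraction 10.7.3.1 per the file headers. Version 9.1 is the one in the submitters' processing notes. The deposited table matched the scanner values within 1% for 100% of 56305 single-spot probes and carried no scaling between arrays (column medians 13.9 to 27.2). It served as an alternative.

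From the deposited intensities log2 values were taken, spots marked as outliers (59 to 97 per array) were left out, and each array's 75th percentile was subtracted. No spot was saturated. Probes well above background on at least 4 of 8 arrays were tested, 17 of the 22 here, and the brightest tested probe stood for its gene. The ages were compared in R 4.3.3 by limma 3.58.1, using lmFit and eBayes. Benjamini-Hochberg adjustment ran over all genes, or all 25738 probes where said, and the threshold was 0.05. The fit was tested on simulated data. The number of arrays limits the precision.

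The 10 genes, the 6 pathway lists and the cell type lists were chosen with earlier results of these data known. From each pathway list the 3 genes with the smallest p were chosen for naming, and 2 of these are not reported here. Alternatives covered background correction, scaling, filters, probe choice, variance prior, array weights, replicate block, data source and left-out arrays. Sequences are from the array files or RefSeq. The exon or UTR position of the probes was not used here, and RefSeq coordinates were used for promoters and neighbours only.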

Additional observations from a re-analysis of the deposited data

Results flagged for a closer look

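Among 28 genes in 2 groups each, the 10 genes and the 18 chosen from the pathway lists, 1 of 56 groups held a sample far from the others. Pik3r1 measured -0.16 in 8-week replicate 2, while the other 8-week samples lay between 1.26 and 1.38, a gap of 0.923 of the group's range. Chance alone marks about 1 in 20 groups, and 1.79% were marked here. None of the 10 genes had such a sample in either group.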

How the results depend on the processing

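Of the 10 genes, 0 passed the adjusted threshold under any alternative other than the replicate block, and the number with a negative difference stayed between 7 and 9 where all 10 were tested (6 of 8 when every array had to be well above background). Areg, Ereg, Hbegf, Erbb2 and Met were negative under every alternative run for them. Normexp correction gave 0.084 for Tgfa and -0.0012 for Hgf, array weights gave 0.022 for Egfr, and other probes gave 0.44 for Tgfa and 0.39 for Egfr. Without 8-week replicates 1 and 2, Btc was 0.035 and Erbb3 -0.037. Leaving out single arrays gave -0.15 to 0.40 for Hgf (negative also without 8-week replicate 2, -0.038) and -0.015 to 0.43 for Erbb3. Tgfa and Erbb2 were not tested when every array had to be well above background. The causes were not tested.

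Genes called lower over the whole array, 5 as reported, were 8 with quantile scaling, 13 with median scaling, 8 with no filter, 1 with every array above background, 9 with the mean of probes, 8 with a trended robust prior, 36 with array weights and 2 without 8-week replicates 1 and 2. Genes called higher, 58 as reported, were 20 with every array above background, 136 with array weights and 12 without those 2 arrays. Leaving out single arrays gave 2 to 14 lower (2 without 8-week replicate 1, 14 without 80-week replicate 2) and 25 to 69 higher (25 without 8-week replicate 1, 33 and 35 without 80-week replicates 3 and 4). Median scaling moved the median of all genes by -0.10.

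Arrays with the same replicate number had deviations that correlated at 0.0256, 0.141, 0.114 and 0.104, and 5 of 8 arrays correlated best with their own number. The numbers were not taken as pairs of samples, because replicate 1 had a correlation near 0. The replicate number also equalled the position within the slide row at both ages. The replicate block thus also covers that position, whose part was not tested. With the replicate block, Ereg kept its difference of -2.22 with an adjusted p of 0.0416, the count of the 10 genes called lower was 1 and that of all genes 17.

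Dim signal limits Tgfa and Erbb2, which were well above background on 2 and 3 of 4 80-week arrays.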

Other observations

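Hepatocyte zonation and bile duct lists were read beside the 10 genes. The pericentral list, genes of hepatocytes around the central vein, had 6 of 6 positive differences, where 48% of all genes were below 0. Its median was 1.91, or 1.14 without 8-week replicates 1 and 2, where 5 were positive and 1 negative. Single differences ran from 0.074 for Cyp2e1 to 4.39 for the glutamate transporter gene Slc1a2. Slc1a2 passed the adjusted threshold in the limma fit, against 0.33% of all genes called higher, and 0 of the 6 did without those arrays. The summed level of the list was 869 to 1352 times the 75th percentile in 80-week livers and 477 to 1041 times in 8-week livers. Cyp2e1, the brightest of the 6, weighed most in that sum. Periportal genes were positive at 4 and negative at 2 (median 0.16, and -0.60 without those arrays), with 557 to 906 times in 80-week livers and 143 to 783 times in 8-week livers. Of 6 cholangiocyte markers 2 were tested, 1 positive and 1 negative (median -0.43, and -0.17 without those arrays), and Cftr was well above background on no array. The part of these lists in the values of the 10 genes was not tested.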
